A study of Mus musculus with 6 samples.

Results

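The 10 genes described here encode surface molecules that tumour cells can present to T cells, NK cells and macrophages: Cd274, Pdcd1lg2, Pvr, Nectin2, Cd47, Cd276, Vtcn1, Nt5e, Raet1e and Ulbp1. They were taken by name from the 20788 genes that at least 1 of 6 RNA sequencing libraries listed. All 6 libraries came from subclones of the mouse melanoma line B16, of the C57BL/6 strain. The 3 Tyr-H libraries are labelled with high tyrosinase activity and the 3 Tyr-L libraries with low tyrosinase activity, and both kinds of cell were grown in low-glucose DMEM with serum and antibiotics, with no treatment. Subclones were grown out of sparsely plated single cells, so each kind of cell may stand for few clones, and how many clones or separate cultures lie behind the 3 libraries of a group is not given. The p-values below therefore measure the spread between these libraries, which may be technical. The authors gave each gene as FPKM, fragments per kilobase of transcript, scaled to the mapped fragments of the library, so levels of different genes are compared per length. The comparison asks whether cells with high and low tyrosinase activity differ in what they can show to immune cells.

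Checkpoint ligands hold immune cells back through inhibitory receptors. PD-L1 (Cd274) and PD-L2 (Pdcd1lg2) engage PD-1 on T cells, the B7 family members B7-H3 (Cd276) and B7-H4 (Vtcn1) restrain T cells, and CD47 is the signal by which a cell tells a macrophage, through its receptor SIRP-alpha, not to engulf it. CD73 (Nt5e) releases adenosine, which dampens T and NK cells, from extracellular AMP. CD155 (Pvr) and CD112 (Nectin2) bind the activating receptor DNAM-1 and the inhibitory receptor TIGIT, whereas RAE-1 epsilon (Raet1e) and MULT1 (Ulbp1) are stress-induced ligands of NKG2D, an activating receptor of NK cells and some T cells.

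Of the 10 genes, 7 were listed in all 6 libraries, Pdcd1lg2 and Nt5e were listed in 1 library each at the worth of fewer than 3 fragments, and Vtcn1 was listed in none. Pvr was higher in Tyr-H cells, Raet1e and Ulbp1 were lower, and Cd274, Nectin2, Cd47 and Cd276 did not pass the test. In bulk RNA, fewer cells that express a gene and less of its RNA per cell cannot be told apart. With limma on log2(FPKM + 0.1), where a call needed both an adjusted p no larger than 0.05 and a log2 fold change of at least 1 in size, 0 of the 7 tested members were called, against 8.75% of the 14336 genes tested (2.96% higher and 5.78% lower in Tyr-H). At the adjusted p alone, 3 of the 7 passed, against 57.8% of the genes tested. Higher in Tyr-H was 1 of 7 against 17.9%, and lower were 2 of 7 against 39.9%. The groups of these 3 members did not overlap, as was so for 64% of the tested genes, 20.2% with Tyr-H above and 43.8% with Tyr-H below. The members' median log2 fold change was 0.08, and that of all tested genes was -0.15. Scaling each library by its median ratio moved the median of all genes to -0.01, and relative to the median of all genes the members' differences were 0.30 for Cd274, 0.76 for Pvr, 0.22 for Nectin2, 0.23 for Cd47, 0.33 for Cd276, -0.62 for Raet1e and -0.71 for Ulbp1.

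**Figure D1:**
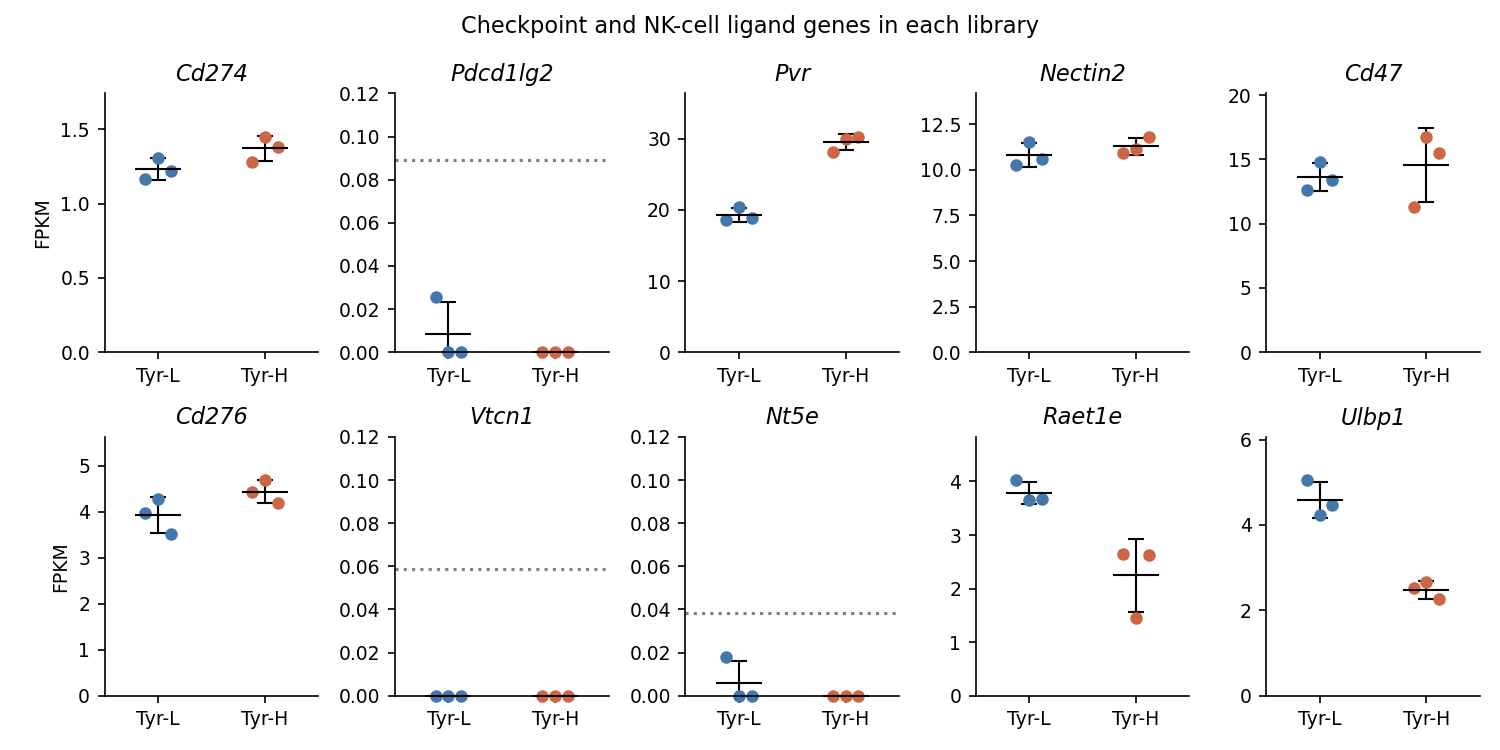
FPKM of each of the 10 genes in the 3 Tyr-L and the 3 Tyr-H libraries, each panel with its own axis from 0. Points are libraries, horizontal lines are means and bars are the SD, and the dotted line marks the largest FPKM that 3 fragments would give for a gene listed in fewer than 2 libraries. Only Pvr, Raet1e and Ulbp1 have groups that are apart from each other among the genes listed in all 6 libraries.

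Because the NKG2D ligand genes carried both of the decreases, and because some of these genes are near copies of each other, their promoter sequences are shown. RefSeq promoter windows on GRCm38.p6 were given for 9 of the 10 members, and Pvr had no entry. Raet1e has more than 1 start in that table. The 250 bases before its second start, chr10:22173247-22173496 on the plus strand, and those before the start of the neighbouring ligand gene Raet1d, chr10:22361644-22361893 on the plus strand, were identical at 245 of 248 aligned bases. Capitals mark the 3 bases that differ.
Raet1e: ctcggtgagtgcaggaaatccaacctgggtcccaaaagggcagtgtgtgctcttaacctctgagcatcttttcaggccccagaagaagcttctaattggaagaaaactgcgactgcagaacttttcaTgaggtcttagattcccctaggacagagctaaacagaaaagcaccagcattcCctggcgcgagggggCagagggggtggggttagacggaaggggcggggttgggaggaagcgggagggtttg
Raet1d: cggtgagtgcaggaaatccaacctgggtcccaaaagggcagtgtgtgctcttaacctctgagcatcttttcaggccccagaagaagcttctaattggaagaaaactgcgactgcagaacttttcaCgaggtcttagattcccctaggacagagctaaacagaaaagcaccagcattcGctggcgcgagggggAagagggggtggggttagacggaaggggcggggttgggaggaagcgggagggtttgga

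The window before the Ulbp1 start, chr10:7473478-7473727 on the minus strand, is shown for contrast, since Ulbp1 fell with these genes but lies far from them on the same chromosome. At the best of the small ungapped shifts that were tried, the Ulbp1 window was identical to the Raet1d window at 81 of 245 bases (33.1%). The window before the first Raet1e start was identical to it at 71 of 247 (28.7%). The corresponding share between the second Raet1e start and Raet1d was 98.8%.
Ulbp1: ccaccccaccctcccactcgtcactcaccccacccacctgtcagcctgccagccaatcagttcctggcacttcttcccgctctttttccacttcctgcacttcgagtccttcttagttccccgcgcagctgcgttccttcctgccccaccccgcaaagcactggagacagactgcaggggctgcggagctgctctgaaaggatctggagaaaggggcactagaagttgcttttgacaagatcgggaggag

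The 11 member windows of 250 bases were searched on both strands for the interferon motifs GAS (TTCNNNGAA) and ISRE, the AP-1 motif TGANTCA, the E-box CACGTG, the M-box CATGTG of pigment cell promoters, the E2F motif TTTCCCGC, the cyclic AMP element TGACGTCA and the NF-kappaB motif. Among all 32851 promoter windows, 7.02% held GAS, 2.98% ISRE, 6.75% AP-1, 6.02% the E-box, 12.25% the M-box, 0.89% E2F, 1.55% the cyclic AMP element and 7.25% NF-kappaB. The only member window with any of them was that of Pdcd1lg2, which held NF-kappaB and the M-box. None of these letters stood in the windows shown above, which says nothing of the factors.

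Both PD-1 ligand genes lie on chromosome 19. Cd274 did not pass the test, and Pdcd1lg2 was too low to be tested. Cd274 (ENSMUSG00000016496, chr19:29367455-29388095, plus strand) read 1.16, 1.31 and 1.22 FPKM in Tyr-L replicates 1 to 3, and 1.28, 1.45 and 1.38 FPKM in Tyr-H replicates 1 to 3. The groups overlapped, and the highest value was in Tyr-H replicate 2. The means were 1.23 ± 0.0735 FPKM for Tyr-L and 1.37 ± 0.0869 FPKM for Tyr-H (SD, n = 3 each), which is a log2 fold change of 0.15 with an SE of 0.13 and a 95% interval from -0.15 to 0.45 (limma, adjusted p = 0.375). A two-sided exact permutation test gave p = 0.2, where the smallest p this design allows is 0.1. The level was low, since 25.5% of the tested genes had a lower mean, and the estimated number of fragments behind it was between 85.9 and 118.2 per library. Of the 100-base windows of its transcript, 6.4% also occur in another gene, mostly the antisense gene AC119228.1, which was listed in no library.

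Pdcd1lg2 (ENSMUSG00000016498, chr19:29410919-29471161) was listed in Tyr-L replicate 1 alone, at 0.0258 FPKM, the worth of an estimated 0.9 fragment. It was listed at 0 in the other 5 libraries by absence. At this depth 3 fragments correspond to between 0.0771 and 0.089 FPKM, so the listed value lay below the level that a count of 0 allows, and the gene was not tested.

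The 3 genes whose log2 levels followed Cd274 most closely over the 6 libraries, out of 11025 genes whose mean reached 1 FPKM, were Ttc23 (Pearson r = 0.9897), Zfp429 (r = 0.9854) and Gm20388 (r = 0.9832). These values describe 6 libraries in which all genes share the same depth, and the log2 fold changes of the 3 genes were small, at 0.28, 0.23 and 0.08.

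PD-L1 is induced by interferon through JAK kinases and IRF1, and all 15 listed genes of that route were measured. None was called. At the adjusted p alone 5 were higher in Tyr-H, 3 were lower and 7 did not pass, beside 17.9% higher and 39.9% lower among all tested genes, and the median log2 fold change was 0.11 beside -0.15 over all tested genes. Jak1, a kinase of both interferon receptors, was among the most abundant and moved by 0.12 (SE 0.05, limma, adjusted p = 0.0487). Irf1, the factor closest to the PD-L1 gene in this route, read 6.26, 6.31 and 6.19 FPKM in Tyr-L against 8.63, 9.94 and 11.4 FPKM in Tyr-H. All 3 Tyr-H libraries were above all 3 Tyr-L libraries for Irf1, while the groups of Cd274 itself overlapped. Irf1 had a log2 fold change of 0.66 (SE 0.09, adjusted p = 0.000263) and Irf9, a factor of the type I interferon response, one of 0.90 (SE 0.11, adjusted p = 9.91e-05). Ifngr2, an interferon-gamma receptor chain, was higher by 0.14. The decreases were in Ifnar1, a type I interferon receptor chain, at -0.45, and in the kinases Jak2, at -0.31, and Tyk2, at -0.21. Scaling decided the smaller ones: Jak1 and Ifngr2 no longer passed when libraries were rescaled to a common total, and Jak2 and Tyk2 no longer passed under median ratio scaling or quantile normalization.

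A further list held 14 genes whose products set how long PD-L1 protein lasts. None was called, 1 was higher at the adjusted p, 8 were lower and 5 did not pass, beside 17.9% and 39.9% of all tested genes. The median was -0.16, close to that of all genes. Cdk4, the cyclin D kinase, had the highest level and fell from 176 ± 0.592 to 128 ± 0.792 FPKM (log2 fold change -0.47, SE 0.03, limma, adjusted p = 1.74e-06). Cops5, a deubiquitinase subunit, came next, at -0.15 (SE 0.05, adjusted p = 0.0249), and turned sign under median ratio scaling. Cmtm6, which keeps PD-L1 from lysosomal breakdown, was also lower, at 14.2 ± 0.687 against 11.1 ± 0.159 FPKM (log2 fold change -0.35, SE 0.05, adjusted p = 0.000424). The single gene that was higher was Zdhhc9, a palmitoyltransferase, at 0.55. Under median ratio scaling the list divided into 5 higher and 3 lower.

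**Figure D2:**
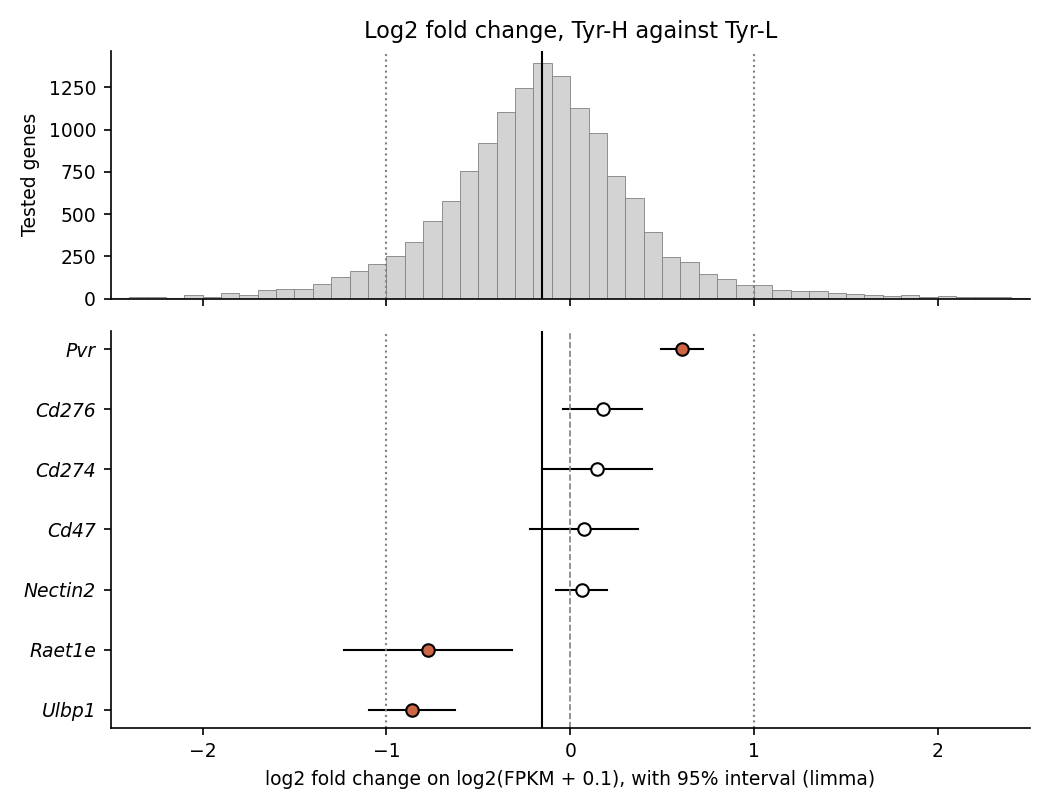
Upper panel, log2 fold changes of Tyr-H against Tyr-L for all tested genes, with an axis that stops short of the largest ones; lower panel, those of the 7 tested members with 95% intervals (limma). Filled points passed an adjusted p of 0.05, the solid vertical line is the median of all tested genes at -0.15, and the dotted lines at -1 and 1 are the fold-change threshold, which no member reaches.

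Of the B7 family genes, Cd276 was expressed and Vtcn1 was not detected. Cd276 (ENSMUSG00000035914, chr9:58524298-58555437, minus strand) read 3.97, 4.28 and 3.51 FPKM in Tyr-L and 4.43, 4.68 and 4.19 FPKM in Tyr-H. The lowest Tyr-H library lay below the highest Tyr-L library. The means were 3.92 ± 0.386 and 4.43 ± 0.248 FPKM (mean ± SD of 3 libraries each), which is a log2 fold change of 0.18 (SE 0.10, 95% interval -0.04 to 0.39, limma, adjusted p = 0.142, exact permutation p = 0.2). Its side of the adjusted p depended on scaling, and under no scaling was it called: median ratio scaling gave 0.33 (adjusted p = 0.0157) and quantile normalization 0.35 (adjusted p = 0.0115). The overlapping gene Gm10657 shares 8.6% of the 100-base windows of Cd276 and was listed at 0.168 FPKM or less. Vtcn1 (ENSMUSG00000051076, chr3:100825459-100896922) was absent from all 6 tables, which allows a level of up to 0.0509 to 0.0587 FPKM, the worth of 3 fragments.

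Of 17 other ligands of inhibitory or costimulatory receptors, 12 were listed and 5 were tested. Both galectins were called higher in Tyr-H, as were 2.96% of all tested genes, the other 3 did not pass, and the list's median log2 fold change was 0.23. Lgals3, galectin-3, a sugar-binding protein that can bind LAG-3, read 155, 156 and 140 FPKM in the Tyr-L libraries against 689, 653 and 729 FPKM in the Tyr-H libraries. Its log2 fold change was 2.20 (SE 0.05, limma, adjusted p = 2.55e-08), the largest of the list. Lgals9, galectin-9, a ligand of TIM-3, rose from 15.3 ± 1.09 to 31.2 ± 3.03 FPKM (log2 fold change 1.03, SE 0.08, adjusted p = 4.98e-06), and stood just past the fold threshold. Tnfsf9, the ligand of the costimulatory receptor 4-1BB, was at 2.80 ± 0.363 and 2.77 ± 0.149 FPKM, with a log2 fold change of -0.01 (SE 0.12). Cd86, Vsir, Cd70, Tnfsf4 and Btnl2 were listed in no library, and Cd80, the partner of Cd86 in costimulation, was at 0.0398 FPKM or less on average in either group.

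Pvr differed between the groups and Nectin2 did not pass, although both lie within the same stretch of chromosome 7 and their products share receptors. Pvr (ENSMUSG00000040511, chr7:19903578-19921160, minus strand) had the highest level of the 10 genes in both groups. It read 18.6, 20.4 and 18.9 FPKM in Tyr-L and 28.2, 30.0 and 30.3 FPKM in Tyr-H. Every Tyr-H library was above every Tyr-L library by more than the whole spread within either group. The means were 19.3 ± 0.977 and 29.5 ± 1.13 FPKM (mean ± SD of 3 libraries each), which is a log2 fold change of 0.61 (SE 0.05, 95% interval 0.50 to 0.72), or 1.53-fold (limma, adjusted p = 9.69e-06). The exact permutation p was 0.1, the smallest this design allows. The increase stayed under the fold threshold of the call.

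Nectin2 (ENSMUSG00000062300, chr7:19716644-19750483, minus strand) read 10.3, 11.5 and 10.6 FPKM in Tyr-L and 10.9, 11.2 and 11.8 FPKM in Tyr-H, so the groups overlapped. The means were 10.8 ± 0.639 and 11.3 ± 0.474 FPKM, a log2 fold change of 0.06 (SE 0.06, 95% interval -0.07 to 0.20, limma, adjusted p = 0.4, exact permutation p = 0.4). Rescaling to a common total turned it to -0.03, while median ratio scaling and quantile normalization gave 0.22 with adjusted p of 0.0152 and 0.0151. The ratio of Pvr to Nectin2 within a library does not change when all its values are multiplied by a factor. It was 1.81, 1.77 and 1.78 in the Tyr-L libraries and 2.59, 2.69 and 2.56 in the Tyr-H libraries, without overlap. The antisense gene Gm20512 overlaps Nectin2 and shares 1.2% of its 100-base windows, and Pvr shared none with any gene, although the antisense gene Gm16251, listed in no library, and the pseudogene Gm16184 overlap it.

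The nectin-like ligands of related receptors moved in both directions. Of the 7 genes of that list 5 were listed and 4 were tested, 2 were higher at the adjusted p, 1 was lower and 1 did not pass, beside 17.9% and 39.9% of all tested genes, and the median log2 fold change was 0.21. Cadm1, an adhesion molecule bound by CRTAM, had the highest level and read 33.3, 36.2 and 34.8 FPKM in Tyr-L and 21.05, 20.4 and 20.7 FPKM in Tyr-H (log2 fold change -0.74, SE 0.04, limma, adjusted p = 1.41e-06). Cadm4 was higher, at 18.4 ± 0.224 and 23.2 ± 1.27 FPKM (log2 fold change 0.33, SE 0.05, adjusted p = 0.000332). Nectin3, a further binding partner of Pvr, was at 16.2 ± 0.319 and 17.3 ± 0.59 FPKM (log2 fold change 0.09, SE 0.05, adjusted p = 0.109). Cadm2 was the only called gene, and 2.96% of all tested genes were called higher. It was barely expressed, with 0.0541, 0.181 and 0.0121 FPKM in Tyr-L and 0.482, 0.324 and 0.217 FPKM in Tyr-H. Its fitted log2 fold change of 1.34 (SE 0.40, adjusted p = 0.0184) depends on the added 0.1. Nectin1 and Cadm3 were listed in no library.

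Of the 34 other protein-coding genes within 100 kb of a member, not counting those that overlap one, 20 were tested, and the 2 that were called were both higher in Tyr-H and both lay in the stretch of Pvr and Nectin2. Bcl3, a nuclear regulator of NF-kappaB, lies 80808 bp from Pvr and 57979 bp from Nectin2. It read 0.609, 0.784 and 0.862 FPKM in Tyr-L and 3.43, 3.27 and 3.31 FPKM in Tyr-H, a log2 fold change of 2.02 (SE 0.14, limma, adjusted p = 4.28e-06). Relb, an NF-kappaB subunit of the non-canonical pathway, lies 87206 bp from Nectin2 and read 3.97, 4.46 and 4.14 FPKM in Tyr-L and 14.4, 14.6 and 16.1 FPKM in Tyr-H (log2 fold change 1.82, SE 0.07, adjusted p = 2.43e-07). Tomm40, the nearest of these genes to Nectin2 at 1206 bp, had a log2 fold change of -0.01 (SE 0.03), and Bcam, the next nearest, of 0.01 (SE 0.19). Apoe, which encodes apolipoprotein E and lies 17456 bp from Nectin2, was lower in Tyr-H, at 356 ± 11.4 and 210 ± 6.12 FPKM (log2 fold change -0.76, SE 0.04, adjusted p = 5.85e-07). Over all 34 genes, 10 were listed in no library, and at the adjusted p alone 4 of the 20 tested were higher and 7 were lower, near the 17.9% and 39.9% of all tested genes, as the 2 called were near the 8.75%. Whether the position of Pvr bears on its difference was not tested.

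Cd47 (ENSMUSG00000055447, chr16:49800533-49915010, plus strand) was the next most abundant member and varied more within Tyr-H than between the groups. It read 12.7, 14.8 and 13.4 FPKM in Tyr-L and 11.3, 16.8 and 15.5 FPKM in Tyr-H, where replicate 1 was the lowest and replicate 2 the highest of all 6 libraries. The means were 13.6 ± 1.09 and 14.5 ± 2.87 FPKM (mean ± SD of 3 libraries each), which is a log2 fold change of 0.08 (SE 0.13, 95% interval -0.22 to 0.37, limma, adjusted p = 0.637, exact permutation p = 0.7). Single libraries decided the value, since it was 0.25 without Tyr-H replicate 1 (adjusted p = 0.0248) and -0.04 without Tyr-H replicate 2 (adjusted p = 0.831), and rescaling to a common total gave -0.02.

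Of 10 genes that modify CD47, bind it or send other signals to phagocytes, 9 were tested, with 1 called lower, beside 5.78% of all tested genes, and a median of -0.09. Lrp1, a receptor through which phagocytes take up cells that show calreticulin, was the called gene, at 2.49, 2.70 and 2.68 FPKM in Tyr-L and 1.28, 1.30 and 1.06 FPKM in Tyr-H (log2 fold change -1.06, SE 0.12, limma, adjusted p = 8.27e-05). Calr, calreticulin, an "eat me" signal when it is on the surface, was the most abundant, at 382 ± 10.2 and 366 ± 39.4 FPKM (log2 fold change -0.07, SE 0.07, adjusted p = 0.424). B2m, the light chain of MHC class I, which is itself read by phagocytes, was higher, at 0.33 (SE 0.05, adjusted p = 0.000265). At the adjusted p alone 2 of the 9 genes were higher and 4 lower, beside 17.9% and 39.9% of all tested genes. Qpctl, the enzyme that forms the pyroglutamate by which SIRP-alpha binds CD47, was at 3.44 ± 0.195 and 3.32 ± 0.326 FPKM and did not pass (log2 fold change -0.05, SE 0.10, adjusted p = 0.684), whereas its relative Qpct fell by 0.71 on the log2 scale (SE 0.12, adjusted p = 0.000974). Thbs1, thrombospondin-1, a soluble ligand of CD47, was higher by 0.61 (SE 0.10, adjusted p = 0.000446).

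Nt5e (ENSMUSG00000032420, chr9:88327197-88372092) was listed in Tyr-L replicate 1 alone, at 0.0179 FPKM, an estimated 1.5 fragments, and in no Tyr-H library. The value of 3 fragments lay between 0.0334 and 0.0385 FPKM, and the gene was not tested. Entpd1, which encodes CD39, the enzyme that precedes CD73 on the route from ATP to adenosine, was listed in no library either, as were the adenosine receptor genes Adora1 and Adora3.

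Other genes of the adenosine route were expressed. Of the 17 genes of that list 14 were listed and 11 were tested, none was called, 5 were higher at the adjusted p, 0 were lower, and 6 did not pass, with a median of 0.36. Over all tested genes 8.75% were called, 17.9% were higher and 39.9% were lower at the adjusted p, and the median was -0.15. Adk, adenosine kinase, was the most abundant, at 39.7 ± 2.76 and 37.1 ± 3.77 FPKM (log2 fold change -0.10, SE 0.08, limma, adjusted p = 0.275). Slc29a1, an equilibrative nucleoside transporter, was at 22.9 ± 0.745 and 27.97 ± 1.45 FPKM (log2 fold change 0.29, SE 0.05, adjusted p = 0.00082). The other 4 that were higher were Entpd5 at 0.70 and Entpd4 at 0.37, nucleotidases that act mainly inside the cell, Slc29a2, a second nucleoside transporter, at 0.62, and Enpp3, an ectonucleotidase, at 0.76. All 5 kept their direction and passed under each of the 3 other scalings.

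**Figure D3:**
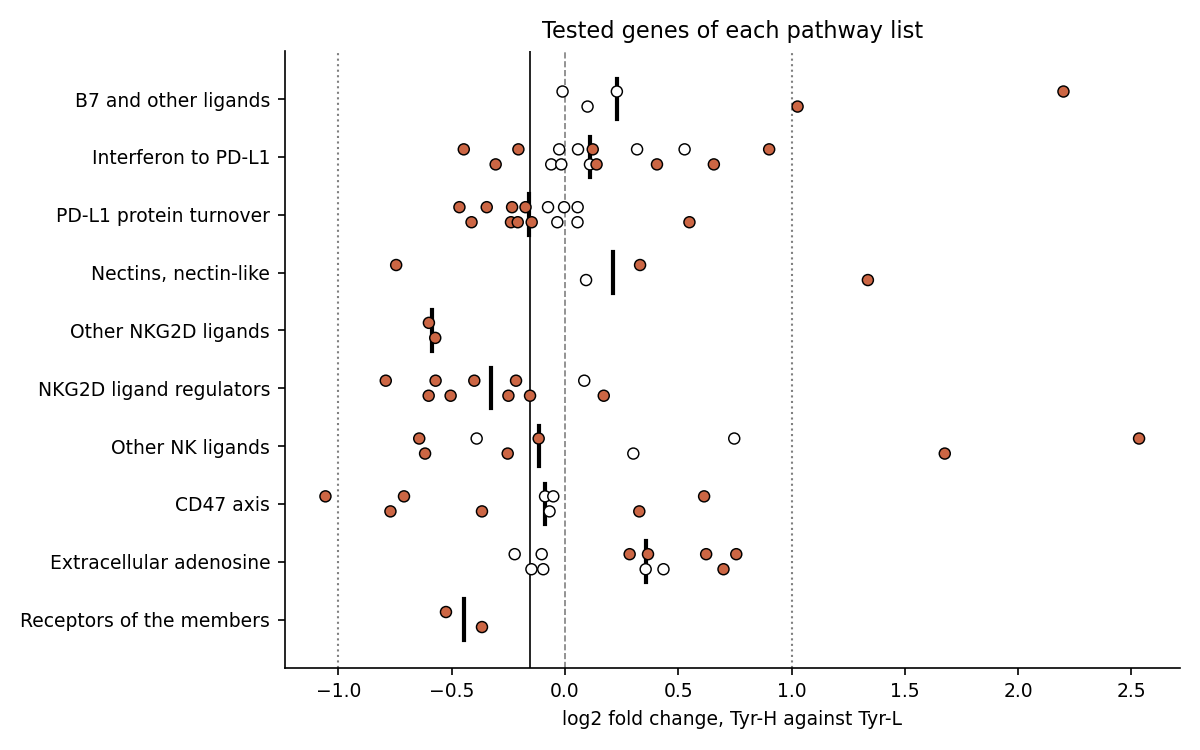
Log2 fold changes of Tyr-H against Tyr-L for the tested genes of each of the 10 pathway lists, filled where the adjusted p was at most 0.05 (limma). Thick bars are list medians, the thin solid line is the median of all tested genes at -0.15, and the dotted lines mark the fold-change threshold, past which 5 genes lie to the right and 1 to the left.

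The NKG2D ligand genes that were tested were lower in Tyr-H cells at the adjusted p, as were 39.9% of all tested genes, and none was called. Ulbp1 (ENSMUSG00000079685, chr10:7440362-7473638, minus strand) read 5.05, 4.24 and 4.46 FPKM in Tyr-L and 2.53, 2.65 and 2.26 FPKM in Tyr-H. The highest Tyr-H library lay well below the lowest Tyr-L library. The means were 4.58 ± 0.419 and 2.48 ± 0.203 FPKM (mean ± SD of 3 libraries each), which is a log2 fold change of -0.86 (SE 0.10, 95% interval -1.10 to -0.62), or 1.81-fold lower in Tyr-H (limma, adjusted p = 9.88e-05). The exact permutation p was 0.1, the smallest possible. Of its 100-base windows 0.2% occur in another gene, so its value rests almost wholly on sequence of its own, and the overlapping pseudogene Gm46209 was listed in no library.

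Raet1e (ENSMUSG00000053219, chr10:22158569-22374139, plus strand) read 4.03, 3.66 and 3.68 FPKM in Tyr-L and 2.65, 1.45 and 2.63 FPKM in Tyr-H. The groups did not overlap, and Tyr-H replicate 2 stood apart from the other two Tyr-H libraries. The means were 3.79 ± 0.207 and 2.25 ± 0.686 FPKM (mean ± SD of 3 libraries each), which is a log2 fold change of -0.77 (SE 0.20, 95% interval -1.23 to -0.32), or 1.71-fold lower (limma, adjusted p = 0.00927, exact permutation p = 0.1). Without Tyr-H replicate 2 the log2 fold change was -0.50 (SE 0.10, adjusted p = 0.00404), so the size of the decrease, though not its side of the adjusted p, rested on that library.

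The value of Raet1e is less certain than that of Ulbp1, because 26.8% of its 100-base windows also occur in another gene, 25.0% in Raet1d and 1.8% in H60b. Conversely, 35.7% of the windows of Raet1d occur in Raet1e. How the authors' quantification divided fragments between them is not given in the sources used here. Raet1d, RAE-1 delta, was the most abundant NKG2D ligand gene, with 7.36, 6.71 and 6.32 FPKM in Tyr-L and 4.62, 4.27 and 4.70 FPKM in Tyr-H (log2 fold change -0.57, SE 0.08, limma, adjusted p = 0.000262). H60b, a ligand of another NKG2D ligand family whose gene overlaps Raet1e, read 1.31, 1.07 and 1.68 FPKM in Tyr-L and 0.811, 0.985 and 0.748 FPKM in Tyr-H (log2 fold change -0.60, SE 0.19, adjusted p = 0.024), and no longer passed under median ratio scaling or quantile normalization. For both genes the groups were apart. Raet1a, Raet1b, Raet1c, H60a and H60c were listed in no library, and whether cells of this strain carry these genes was not tested. Of 7 other mouse ligand genes 2 were thus tested. Both were lower at the adjusted p, as were 39.9% of all tested genes, neither by enough to be called.

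A sum over the locus depends less on how fragments were divided among its genes. Raet1e, Raet1d and H60b together came to 12.7, 11.4 and 11.7 FPKM in Tyr-L and 8.08, 6.71 and 8.08 FPKM in Tyr-H, or 11.9 ± 0.669 against 7.63 ± 0.791 FPKM, 1.56 times as high in Tyr-L. With Ulbp1 the 4 genes came to 17.7, 15.7 and 16.1 FPKM in Tyr-L and 10.6, 9.37 and 10.3 FPKM in Tyr-H, 1.63 times as high in Tyr-L. Neither sum overlapped between the groups. The share of Raet1e in the sum of its locus was 31.7%, 32.0% and 31.5% in Tyr-L and 32.8%, 21.7% and 32.6% in Tyr-H, so that the low Raet1e value of Tyr-H replicate 2 was not matched by its Raet1d and H60b values.

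**Figure D4:**
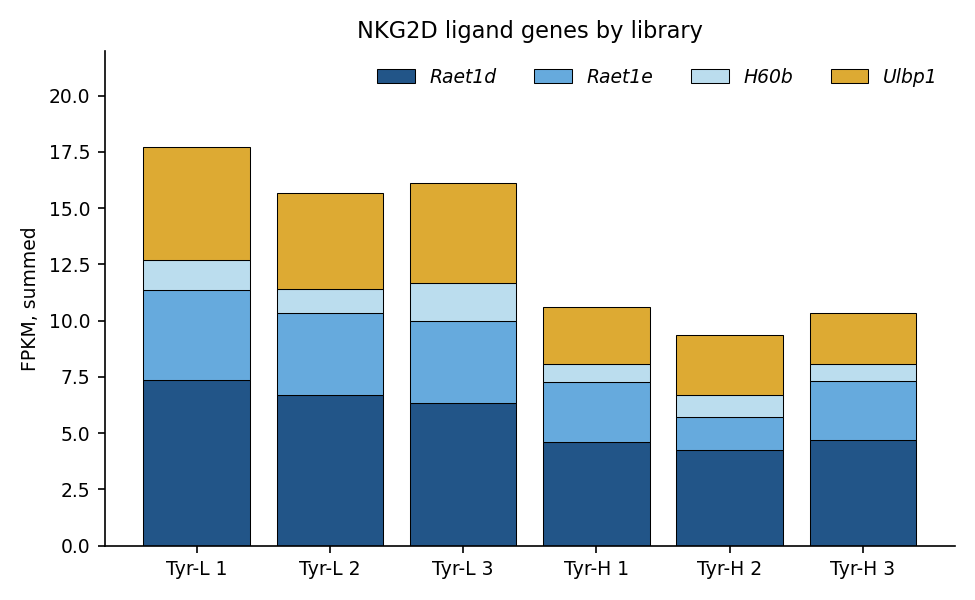
Summed FPKM of the NKG2D ligand genes Raet1d, Raet1e, H60b and Ulbp1 in each of the 6 libraries. The bars of the Tyr-L libraries reach 15.7 to 17.7 FPKM and those of the Tyr-H libraries 9.37 to 10.6 FPKM, and in Tyr-H replicate 2 the part of Raet1e is the smallest of all libraries.

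Of 7 other annotated transcripts that overlap Raet1e, besides Raet1d and H60b, 4 were tested and 3 were lower at the adjusted p, a rule by which 39.9% of all tested genes were lower. Gm26581, a lincRNA, had a log2 fold change of -0.47 (SE 0.12, limma, adjusted p = 0.00831), and the pseudogenes Gm1972 and Gm5421 had -0.60 (SE 0.21, adjusted p = 0.0377) and -0.59 (SE 0.22, adjusted p = 0.0452). C920009B18Rik, a transcribed pseudogene within the same stretch, was the tested one that did not pass, at 4.16 ± 0.0828 and 3.99 ± 0.249 FPKM (log2 fold change -0.06, SE 0.08, adjusted p = 0.556). The protein-coding neighbour E030030I06Rik, 9299 bp from Raet1e, did not pass either (0.08, SE 0.09, adjusted p = 0.459).

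A further list held genes that induce NKG2D ligands under stress or shed them from the surface. Of 10 genes, all tested, none was called, 1 was higher at the adjusted p, 8 were lower and 1 did not pass, where 39.9% of all tested genes were lower by that rule, with a median of -0.32 beside -0.15 over all genes. The most abundant was Pdia6, a disulfide isomerase used in the shedding of such ligands, at -0.15 (SE 0.05, limma, adjusted p = 0.0257), and the next was Trp53, p53, at 0.17 (SE 0.04, adjusted p = 0.0073). Under median ratio scaling 2 of the 10 were higher and 5 lower. Neither of the 2 named held under every scaling, since Pdia6 lost its place under median ratio scaling and Trp53 when rescaled to a common total. Larger decreases were found for the shedding proteases Mmp14 (73.8 ± 0.0538 to 48.6 ± 0.856 FPKM, log2 fold change -0.60), Adam10 (45.9 ± 2.16 to 32.3 ± 1.38 FPKM, -0.50) and Adam17 (28.1 ± 0.815 to 21.3 ± 0.578 FPKM, -0.40). The DNA damage kinase Atm fell from 10.9 ± 0.881 to 6.22 ± 0.164 FPKM (-0.79) and the cell cycle factor E2f1, known to drive Raet1 transcription, from 23.7 ± 1.11 to 15.9 ± 0.858 FPKM (-0.57). These 5 stayed lower at the adjusted p under all 3 other scalings. The list thus holds both inducers and shedding enzymes, which act on surface ligand in opposite ways, and surface protein was not measured in these libraries.

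Ordered by level in Tyr-L, Pvr was followed by Cd47, Nectin2, Ulbp1, Cd276, Raet1e and Cd274. Among neighbours in that order, the library values of Ulbp1 and Cd276 overlapped, as did those of Cd276 and Raet1e, and the others did not. In Tyr-H the order was Pvr, Cd47, Nectin2, Cd276, Ulbp1, Raet1e and Cd274, where Cd47 and Nectin2 overlapped, as did Ulbp1 and Raet1e, and the lowest Raet1e and the highest Cd274 value were both 1.45 FPKM. Cd276 thus stood above both Ulbp1 and Raet1e in every Tyr-H library, whereas in Tyr-L Ulbp1 had the higher mean.

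Tyr, the gene for tyrosinase, served as the check of the labels and read 10.7, 9.52 and 9.80 FPKM in Tyr-L and 23.8, 20.6 and 19.7 FPKM in Tyr-H (log2 fold change 1.08, SE 0.08, limma, adjusted p = 3.98e-06), in the direction the labels give. The study describes Tyr-H cells as those with higher Tyr expression, so this direction is no independent evidence for the labels. Of 17 immune cell markers 12 were listed in no library, among them Ptprc, Cd3e, Ncr1, Itgam and Adgre1, and the list's summed level was 3.44 to 4.21 FPKM in Tyr-L and 4.63 to 4.83 FPKM in Tyr-H, most of it Cd68, so the sums did not overlap. Of the 2 immune markers tested, 0 passed the adjusted p as reported and 1 was higher under median ratio scaling and under quantile normalization. Of 10 fibroblast and endothelial markers 3 were listed in no library, and the sum was 2.28 to 2.57 and 2.12 to 2.40 FPKM. Of 4 tested genes 1 was higher and 1 lower at the adjusted p, beside 17.9% and 39.9% of all tested genes. Of 9 melanocyte markers 8 were listed and summed to 7340 to 7660 and 5440 to 5960 FPKM. Of the 8 tested 1, Tyr, was higher and 7 were lower at the adjusted p, beside the same 17.9% and 39.9%. Among the 7 were Tyrp1 (log2 fold change -0.23), Dct (-0.64) and Pmel (-0.73), whose products also serve the making of melanin. Under median ratio scaling 5 were lower, and Tyrp1 no longer passed. Mitf, the master regulator of pigment cells (log2 fold change -1.85), and Kit (-1.13) were called lower in Tyr-H, as were 5.78% of all tested genes. The part of these lists in the results above was not tested. The depth estimated from the lowest values was 19500000 to 22500000 fragments per library, with each group covering much of that range, and the median difference between 2 libraries on the log2 scale was 0.0953 to 0.114 within groups and 0.315 to 0.371 between them.

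**Figure D5:**
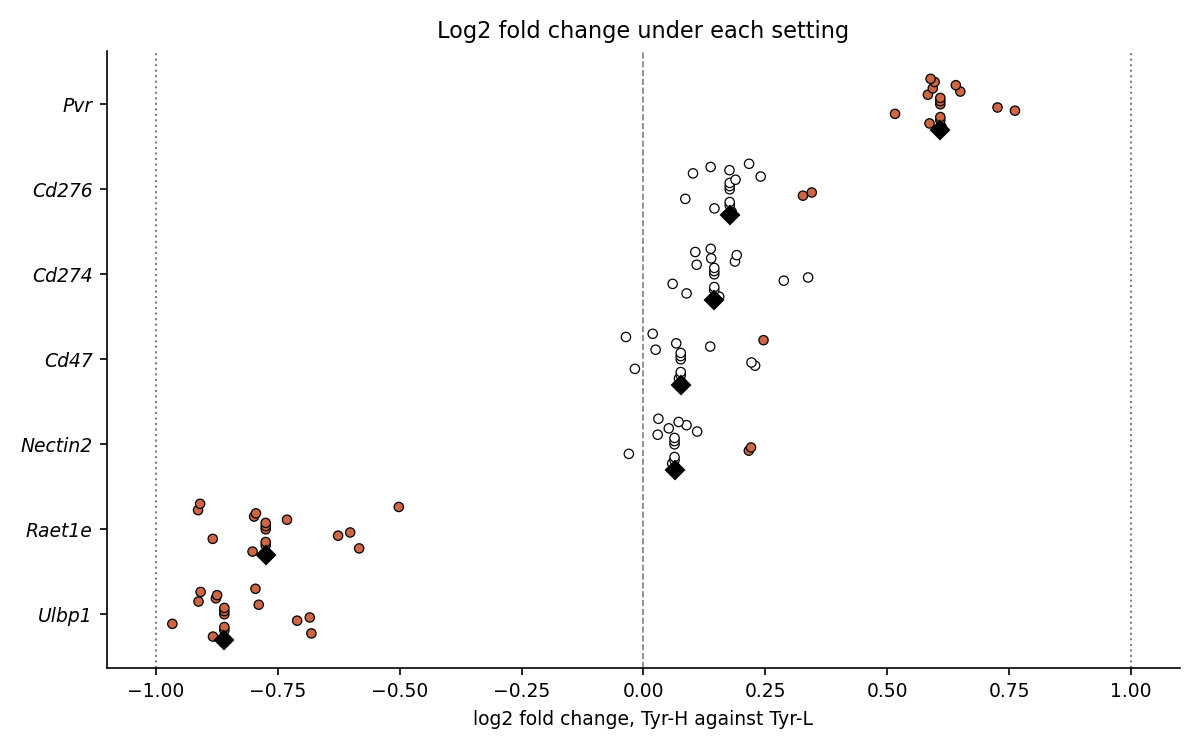
Log2 fold change of each tested member as reported (black diamonds) and under 16 other ways of processing (circles), filled where the adjusted p was at most 0.05 (limma). Pvr, Raet1e and Ulbp1 stay filled and on the same side of 0 throughout, and Cd274 is unfilled throughout. Cd276 and Nectin2 are each filled under 2 settings and Cd47 under 1, while Nectin2 crosses 0 under 1 setting and Cd47 under 2.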

How the data were processed

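RNA of 6 libraries (Tyr-L and Tyr-H, 3 each) had been prepared with a poly(A) mRNA kit and sequenced from both ends with 150 bp reads. The authors deposited FPKM values per gene and library. The submitters' processing notes name Trimmomatic, HISAT2, HISAT and the build GRCm38.p6, while the quantifier and the annotation are not given in the sources used here. Groups and replicate numbers came from the labels. A gene that a library did not list was taken as 0 FPKM.

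The members, and all gene lists, were chosen with earlier results of these data known. The 14336 genes whose mean reached 0.1 FPKM were compared on log2(FPKM + 0.1) with limma 3.58.1 in R 4.3.3, with a variance trend and Benjamini-Hochberg adjustment across these genes. The threshold on adjusted p (0.05) and on the log2 fold change (1) followed the kind the study used. A fold change on this scale understates the change of low genes. Means and SD are of FPKM. Exact permutation tests were two-sided. List genes named are those called, or otherwise the up to 2 most abundant and the unlisted ones, and all other list genes were named after their values were seen. Values of genes that overlap another gene or resemble a paralog are uncertain. Results of 1 list gene are not reported here.

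Depth was estimated from the FPKM that 1 fragment gives in transcripts of at least 1500 nt. Most values were not whole multiples of it, so no count test was run. Limits of 3 fragments are approximate and cover counting error only. Positions (counted from 1) and overlaps came from GENCODE M21 (GRCm38), which held 20709 of 20788 identifiers. Without known strand handling, a gene and its antisense partner cannot be told apart. Promoters were RefSeq windows. The other steps ran in Python 3.11.15 (matplotlib 3.10.9, scipy 1.17.1, pandas 2.3.3, numpy 2.4.6), and the fit was tested on simulated data. Alternatives were other pseudocounts, filters, scalings and variance estimates, a replicate block, each library left out, and no fold threshold.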

Additional observations from a re-analysis of the deposited data

How the results depend on the processing

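Cd274, Pvr, Raet1e and Ulbp1 kept their direction and their side of the adjusted p threshold under all 16 settings that gave them a value, with ranges of 0.06 to 0.34, 0.52 to 0.76, -0.91 to -0.50 and -0.97 to -0.68. Cd274 came nearest to passing under quantile normalization (log2 fold change 0.34, limma, adjusted p = 0.0556). Nectin2, Cd47 and Cd276 depended on scaling or on single libraries. Rescaling to a common total turned Nectin2 to -0.03 and Cd47 to -0.0176. Median ratio scaling gave 0.22 for Nectin2 and 0.33 for Cd276, and quantile normalization 0.22 and 0.35, all past the adjusted p. Leaving out 1 library at a time, Cd47 ranged from -0.036 (without Tyr-H replicate 2) to 0.25 (without Tyr-H replicate 1), Nectin2 from 0.03 (without Tyr-L replicate 1) to 0.11 (without Tyr-L replicate 2) and Cd276 from 0.10 (without Tyr-L replicate 3) to 0.24 (without Tyr-L replicate 2). The count of called genes, 1254 as reported, was 388 with a pseudocount of 1 FPKM, 640 for a mean of at least 1 FPKM and 8292 with no fold threshold. The list genes called, 6 as reported, were then 1, 3 and 51, and the members called, 0 as reported, were 3 with no fold threshold. The share of calls that were higher in Tyr-H was 33.9% as reported, 25.5% when rescaled to a common total, 47.7% with the pseudocount of 1 FPKM, 47.8% under median ratio scaling and 55.3% under quantile normalization. The cause was not tested, except that fewer genes were tested at the higher minimum and that a larger pseudocount shrinks the differences of low genes.

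Same-numbered libraries did not deviate together (correlations of 0.022, 0.013 and -0.083). Such values cannot tell whether same-numbered libraries shared a culture, a preparation or a run. With the replicate number as a block, 1258 genes and 0 members were called, and Pvr, Raet1e and Ulbp1 still passed the adjusted p (0.61, -0.77 and -0.86). Without counts, depth could only be estimated, and for Pdcd1lg2, Nt5e and Vtcn1 a level of up to about 3 fragments is allowed in the libraries that do not list them.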

Other observations

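The receptors that read these ligands are carried mainly by lymphocytes and myeloid cells, and most of their genes were not listed in these cultured tumour cells. Of 13 receptor genes, Pdcd1, Tigit, Cd226, Klrk1, Pvrig, Ctla4 and Hcst were listed in no library, and only Sirpa and Havcr2 were high enough to be tested. Sirpa, the receptor of CD47, was expressed by the melanoma cells themselves, at 76.0, 80.6 and 78.0 FPKM in Tyr-L and 62.0, 60.5 and 59.4 FPKM in Tyr-H. It was thus several times more abundant than Cd47 in every library and lower in Tyr-H (log2 fold change -0.37, SE 0.04, limma, adjusted p = 2.51e-05). Havcr2, which encodes TIM-3, a receptor of galectin-9, was low, at 0.576 ± 0.044 and 0.37 ± 0.0386 FPKM (mean ± SD of 3 libraries each), with a log2 fold change of -0.53 (SE 0.20, adjusted p = 0.046) that no longer passed under median ratio scaling or quantile normalization.

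Of 15 ligands of other NK cell receptors, 9 were tested, 2 were called higher in Tyr-H, beside 2.96% of all tested genes, and 4 were lower at the adjusted p, beside 39.9%, with a median of -0.12. The called genes were both adhesion ligands of LFA-1, the integrin with which NK cells hold their targets. Icam2 read 0.507, 0.262 and 0.265 FPKM in Tyr-L and 1.35, 1.38 and 1.12 FPKM in Tyr-H (log2 fold change 1.68, SE 0.24, limma, adjusted p = 0.000268). Icam1 read 0, 0.0325 and 0.0208 FPKM in Tyr-L and 0.449, 0.472 and 0.889 FPKM in Tyr-H, so that it was close to 0 in every Tyr-L library, and its fitted value of 2.53 (SE 0.32, adjusted p = 0.000139) depends on the added 0.1. The most abundant, Vim (686 ± 34.4 and 575 ± 10.9 FPKM, log2 fold change -0.25) and Pcna (255 ± 3.97 and 166 ± 4.33 FPKM, -0.62), encode intracellular proteins that NK receptors have been described to bind when exposed at the surface. Vim no longer passed under median ratio scaling. Clec2g, Clec2i, Cdh4 and Slamf7 were listed in no library.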
